A study of Mus musculus with 4 samples.

Results

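The genes described here are 10 members of the BCL2 family, which sets whether a cell survives or dies by the mitochondrial route of apoptosis. They were taken by symbol: the survival genes Mcl1, Bcl2l1, Bcl2, Bcl2a1a, Bcl2a1b and Bcl2a1d, the pore-forming gene Bak1, and the death-signal genes Bcl2l11, Bid and Bmf. All 10 were among the 14323 genes of the table, and all 10 were among the 11370 genes that passed the filter on low values, a mean of at least 1 normalized count over the 4 libraries. RNA-seq was run on colonies grown from sorted short-term haematopoietic stem cells (ST-HSCs), which rebuild blood for a limited time, and from MPP2 cells, multipotent progenitors biased to the megakaryocyte and erythroid lines.

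The cells were of the C57BL/6 strain in all 4 groups and could be induced to express MLL-ENL, a leukaemia fusion of the chromatin regulator MLL with the elongation factor ENL. The 4 groups were ST-HSCs with ethanol (ST-EtOH), ST-HSCs with 4-hydroxytamoxifen (ST-4OHT), MPP2 cells with ethanol (MPP2-EtOH) and MPP2 cells with 4-hydroxytamoxifen (MPP2-4OHT), with 1 library each. 4-hydroxytamoxifen (4OHT), the active form of tamoxifen, was used at 0.05 µM, and the labels mark those cultures as expressing MLL-ENL and the ethanol cultures as control. All 4 started from 100 cells in 1 ml of 1% methylcellulose, fed SCF at 25 ng/ml and the cytokines GM-CSF, IL-3 and IL-6 at 10 ng/ml, and were kept for 5 to 7 days. The sources used here do not give the construct, its promoter or the number of mice behind a culture. The labels name the starting cell, while the RNA is that of its colonies, which held neutrophil and monocyte transcripts in quantity.

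BCL2 proteins fall into 3 kinds that act by binding one another at the outer mitochondrial membrane. Guardians such as MCL1, BCL-XL (gene Bcl2l1), BCL2 and A1 (the Bcl2a1 genes) hold the killers in check. BAK and BAX are the killers that open the membrane, and BH3-only proteins such as BIM (gene Bcl2l11), BID and BMF carry death signals by binding guardians or by activating killers. Blood progenitors and myeloid cells are known to depend on MCL1, and cytokines such as IL-3 and SCF keep BIM low.

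Levels are normalized counts. The libraries held 12907412 to 14317891 recovered reads, each worth 0.0695 to 0.0802 of that unit. Values in brackets after a ratio are its 95% counting interval, which covers the sampling of reads and not the variation between cultures. A difference between 1 pair of libraries has no replicate check and no p-value. In these bulk samples, fewer cells of a type and less RNA per cell cannot be told apart. The marker lists differed among libraries. The mast and basophil list of 11 genes summed to 216 normalized counts in ST-EtOH, 167 in ST-4OHT, 1684 in MPP2-EtOH and 606 in MPP2-4OHT. The erythroid list summed to 0.765, 1.08, 141 and 10.2 in the same order, with 5 of its genes at 0 reads in the first library and 4 in the second. Monocyte and macrophage genes summed to 2289, 3571, 3103 and 5020.

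Across the family, the largest differences with 4OHT were a Bcl2 level 2.13-fold lower in MPP2 colonies and a Bcl2a1d level 2.01-fold higher in ST-HSC colonies. The Bcl2a1d value is uncertain, since the sources do not say how reads were divided among the Bcl2a1 copies. Summed, the 3 Bcl2a1 rows were 1.47-fold higher with 4OHT in ST-HSC colonies (1.33 to 1.63). Between cell types, Bcl2l11 was 2.01-fold higher in MPP2 than in ST-HSC colonies in ethanol and 2.35-fold higher under 4OHT, and in ethanol Bcl2 was 2.20-fold and Bcl2a1b 2.18-fold higher. Mcl1, Bak1, Bid and Bmf each lay within 1.26-fold over the 4 libraries. With 4OHT, 7 of the 10 genes stood above ethanol in both cell types, against 30.4% of tested genes, and 0 stood below in both, against 31.4%. Those 7 include all 3 Bcl2a1 genes, which share most of their sequence and so are not separate observations.

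**Figure D1:**
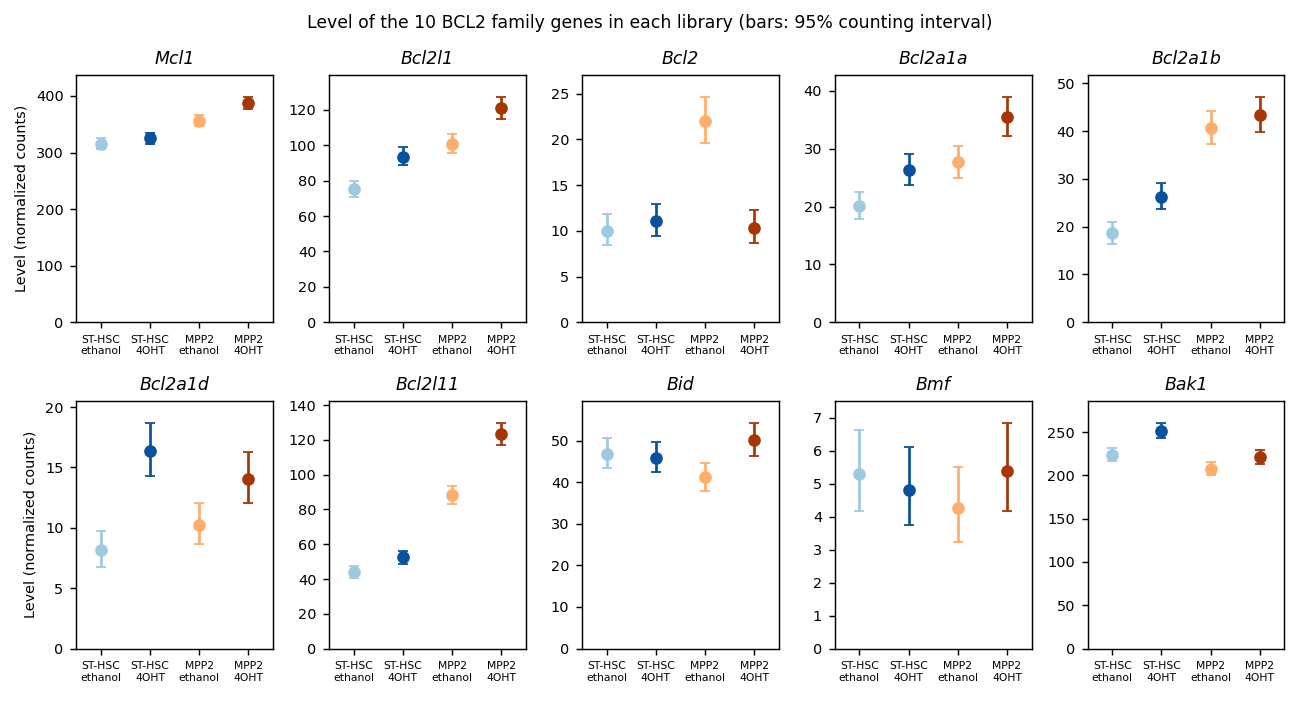
Level of each of the 10 genes (vertical axis, normalized counts from 0) in the 4 libraries (horizontal axis), with bars for the 95% counting interval. Bcl2 stands at 22.0 in MPP2-EtOH and near 10 to 11 in the other 3 libraries, while Bcl2l11 stands at 44.0 and 52.4 in ST-HSC colonies and at 88.3 and 123 in MPP2 colonies.

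Mcl1, a short-lived guardian on chromosome 3 (95658788 to 95663176, GRCm38, plus strand), was the most abundant member per length in the mean. It had 316 normalized counts in ST-EtOH, 325 in ST-4OHT, 356 in MPP2-EtOH and 387 in MPP2-4OHT. The 4 libraries lay within 1.23-fold of each other, and both MPP2 libraries were above both ST-HSC libraries. The 4OHT/ethanol ratio was 1.03 (95% counting interval 0.988 to 1.07) for ST-HSC colonies and 1.09 (1.04 to 1.13) for MPP2 colonies.

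Bcl2l1, which encodes BCL-XL, a guardian of red cell precursors and platelets, lies on chromosome 2 (152780668 to 152831728, minus strand). Its level was 75.4 in ST-EtOH, 93.6 in ST-4OHT, 101 in MPP2-EtOH and 121 in MPP2-4OHT. It was higher with 4OHT in each cell type and higher in both MPP2 libraries than in both ST-HSC libraries. The 4OHT ratio was 1.24 (1.15 to 1.35) for ST-HSC colonies and 1.20 (1.12 to 1.29) for MPP2 colonies, and the difference between these responses was -0.05 in log2 (counting interval -0.21 to 0.11).

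Bcl2, the founding guardian of the family, lies on chromosome 1 (106538178 to 106714274, minus strand). It was low in all libraries, at 10.0 normalized counts (144 reads) in ST-EtOH, 11.1 (154 reads) in ST-4OHT, 22.0 (305 reads) in MPP2-EtOH and 10.3 (129 reads) in MPP2-4OHT. The MPP2-EtOH library stood apart from the other 3, whose counting intervals overlap. The exons of Bcl2 overlap those of D630008O14Rik on the opposite strand. The 4OHT ratio was 0.470 (0.380 to 0.580) in MPP2 colonies, which is 2.13-fold lower (1.73 to 2.63), and 1.11 (0.875 to 1.40) in ST-HSC colonies.

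As a log2 ratio the MPP2 response of Bcl2 was 1.23 below the ST-HSC response (difference -1.23, counting interval -1.68 to -0.79). Of all tested genes, 1.74% had a lower difference between the 2 responses. No test of this difference can be made, since a model with an interaction uses up all 4 libraries. In the same pair of MPP2 colonies 8 of 11 mast and basophil markers and 6 of 7 tested erythroid markers were at least 2-fold lower with 4OHT. This held for 1.70% of all tested genes. The part of mast, basophil and erythroid cells in the Bcl2 difference was not tested. In ST-HSC colonies 5 of the 11 mast and basophil markers were at least 2-fold lower too, against 0.545% of tested genes. They fell from a far lower sum, while Bcl2 had the ratio of 1.11.

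Bcl2a1a, Bcl2a1b and Bcl2a1d encode A1, a guardian of granulocytes, mast cells and activated lymphocytes that NF-kB signalling can induce. Mice carry several near-identical copies on chromosome 9, at 88956900 to 88962419 (Bcl2a1a, plus strand), 89199209 to 89207827 (Bcl2a1b, plus strand) and 88723285 to 88731914 (Bcl2a1d, minus strand). Their coding sequences have 516 bases each and differ at 12 positions in all. Identity was 97.9% between Bcl2a1a and Bcl2a1b, 98.6% between Bcl2a1a and Bcl2a1d and 98.8% between Bcl2a1b and Bcl2a1d. The first 120 coding bases hold 7 of the 12 positions and are shown because they carry most of what can tell the copies apart (GENCODE M21, 5′ to 3′, with capitals where the copies are not all the same):
Bcl2a1a: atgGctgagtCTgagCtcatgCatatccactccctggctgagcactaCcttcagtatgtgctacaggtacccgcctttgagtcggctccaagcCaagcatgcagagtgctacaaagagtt
Bcl2a1b: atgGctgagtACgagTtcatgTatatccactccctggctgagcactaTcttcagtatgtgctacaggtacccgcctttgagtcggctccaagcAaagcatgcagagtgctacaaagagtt
Bcl2a1d: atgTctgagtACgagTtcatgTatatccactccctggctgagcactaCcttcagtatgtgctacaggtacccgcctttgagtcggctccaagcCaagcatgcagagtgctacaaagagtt

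The longest run of coding bases that is the same in all 3 has 217. Over whole transcripts, 79.6% of the 31-base words of Bcl2a1a, 88.8% of those of Bcl2a1b and 89.1% of those of Bcl2a1d occur in another gene, and Bcl2a1b overlaps the gene model Gm29094 on the same strand. The sources do not say how reads were divided among the copies, so the single rows are uncertain and their sum is the firmer value.

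The sum of the 3 rows was 46.8 normalized counts in ST-EtOH, 69.0 in ST-4OHT, 78.5 in MPP2-EtOH and 92.8 in MPP2-4OHT. It was higher with 4OHT in each cell type, by a ratio of 1.47 (1.33 to 1.63) for ST-HSC colonies and 1.18 (1.09 to 1.29) for MPP2 colonies. As log2 ratios, the MPP2 response was lower than the ST-HSC response by 0.32 (difference -0.32, counting interval -0.50 to -0.13), which was not tested over cultures. Monocyte and macrophage markers were higher with 4OHT in the same pairs, 9 of 9 tested in each cell type. Of all tested genes, 49.3% were higher in ST-HSC and 49.7% in MPP2 colonies. The part of monocytes and macrophages in the Bcl2a1 levels was not tested.

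By row, Bcl2a1d had 8.14, 16.4, 10.2 and 14.0 normalized counts in ST-EtOH, ST-4OHT, MPP2-EtOH and MPP2-4OHT. Both of its 4OHT libraries were above both ethanol libraries, as held for 1 of the 10 genes and 12.2% of tested genes, while the reverse held for 0 and 14.3%. Its 4OHT ratio was 2.01 (1.60 to 2.54) for ST-HSC colonies and 1.37 (1.09 to 1.72) for MPP2 colonies. Bcl2a1a had 20.0, 26.3, 27.6 and 35.5 in the same order, and Bcl2a1b had 18.6, 26.3, 40.6 and 43.3. For MPP2 colonies the 4OHT ratio of Bcl2a1b was 1.07 (0.946 to 1.20), an interval that includes 1. Bcl2a1b made up 39.8% of the reads of the 3 rows in ST-EtOH (Wilson 95% interval 36.2 to 43.6) and 51.7% in MPP2-EtOH (48.8 to 54.7), while the share of Bcl2a1d was 17.4% (14.7 to 20.4) and 13.1% (11.2 to 15.2). With 4OHT the share of Bcl2a1d was 23.8% (21.2 to 26.5) for ST-HSC colonies and 15.1% (13.2 to 17.3) for MPP2 colonies. A 4th copy, Bcl2a1c, was near absent at 0 to 8 reads.

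The upstream regions of the copies are also alike. The letters GAGGAAGT, a form of the site bound by ETS factors such as PU.1, occur in all 3 copies. A stretch of 80 bases around them is shown (RefSeq windows on GRCm38.p6, 5′ to 3′ on the gene's strand, motif in capitals):
Bcl2a1a, chr9:88956780-88956859, plus strand: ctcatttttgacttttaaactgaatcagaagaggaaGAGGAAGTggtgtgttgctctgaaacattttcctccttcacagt
Bcl2a1b, chr9:89199089-89199168, plus strand: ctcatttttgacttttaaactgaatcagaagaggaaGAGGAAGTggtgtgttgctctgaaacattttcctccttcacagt
Bcl2a1d, chr9:88731911-88731990, minus strand: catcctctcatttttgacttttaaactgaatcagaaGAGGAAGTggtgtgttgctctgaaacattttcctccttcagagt

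The motif starts 104, 148 and 104 bases before the annotated start of Bcl2a1a, Bcl2a1b and Bcl2a1d. Searched on both strands in the 250 bases before each annotated start, GAGGAAGT occurs in 2.44% of 32851 windows, and among the 10 members it also occurs in Bak1. The NF-kB consensus, in 17.6% of windows, was found in Bak1 alone among the members, and the STAT letters TTCNNNGAA, in 7.02%, in 0 of their 15 windows. A match describes the letters in the window and says nothing of binding. The part of any motif in the levels of these genes was not tested.

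Bak1, a killer that forms pores in the mitochondrial membrane, lies on chromosome 17 (27019810 to 27029009, minus strand). It had 224 normalized counts in ST-EtOH, 252 in ST-4OHT, 207 in MPP2-EtOH and 221 in MPP2-4OHT. It was the only member lower in both MPP2 libraries than in both ST-HSC libraries, a pattern of 33.7% of tested genes. The 4OHT ratio was 1.12 (1.07 to 1.18) for ST-HSC colonies and 1.07 (1.01 to 1.12) for MPP2 colonies. Its exons overlap those of Ggnbp1 on the opposite strand, a gene at 0.287 to 0.695 normalized counts.

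Bcl2l11, which encodes BIM, the BH3-only protein that links loss of cytokine to death in blood cells, lies on chromosome 2 (128126038 to 128162547, plus strand). BIM is a known target of FOXO factors, and the first of its annotated start windows holds the FOXO letters GTAAACA at 227 bases before the start, shown in capitals (RefSeq, GRCm38.p6):
Bcl2l11, chr2:128125788-128125867, plus strand: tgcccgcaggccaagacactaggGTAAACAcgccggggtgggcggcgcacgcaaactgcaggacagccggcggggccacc

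On both strands these letters occur in 3.17% of the windows, and in no other window of the 10 members.

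Bcl2l11 stood at 44.0 normalized counts in ST-EtOH, 52.4 in ST-4OHT, 88.3 in MPP2-EtOH and 123 in MPP2-4OHT. All 4 counting intervals are apart, with the 2 MPP2 libraries the highest. The MPP2 to ST-HSC ratio was 2.01 (1.82 to 2.21) in ethanol and 2.35 (2.15 to 2.57) under 4OHT. With 4OHT it was higher by a ratio of 1.19 (1.07 to 1.33) for ST-HSC colonies and 1.40 (1.29 to 1.51) for MPP2 colonies, a difference between responses of 0.23 in log2 (counting interval 0.04 to 0.42) that was not tested over cultures. Foxo3, a factor that can induce BIM, had a 4OHT difference in log2 of 0.12 for ST-HSC colonies and 0.20 for MPP2 colonies. Foxo3 falls outside the naming rule, and its part in the Bcl2l11 levels was not tested.

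Bid, which is cut by caspase 8 and so joins death receptors to mitochondria, lies on chromosome 6 (120891930 to 120916853, minus strand). It had 46.9, 45.9, 41.1 and 50.1 normalized counts in ST-EtOH, ST-4OHT, MPP2-EtOH and MPP2-4OHT, all within 1.22-fold. The 4OHT ratio was 0.978 (0.876 to 1.09) for ST-HSC colonies and 1.22 (1.08 to 1.37) for MPP2 colonies. Its exons overlap those of Bcl2l13 on the opposite strand, a gene at 107 to 117 normalized counts, and the sources do not say whether counting used strand. Bmf, a BH3-only gene on chromosome 2 (118528757 to 118549687, minus strand), had 59 to 76 reads per library, or 5.28, 4.81, 4.26 and 5.38 normalized counts. At this depth no 4OHT difference of Bmf was detectable, with ratios of 0.911 (0.646 to 1.28) and 1.26 (0.876 to 1.82).

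**Figure D2:**
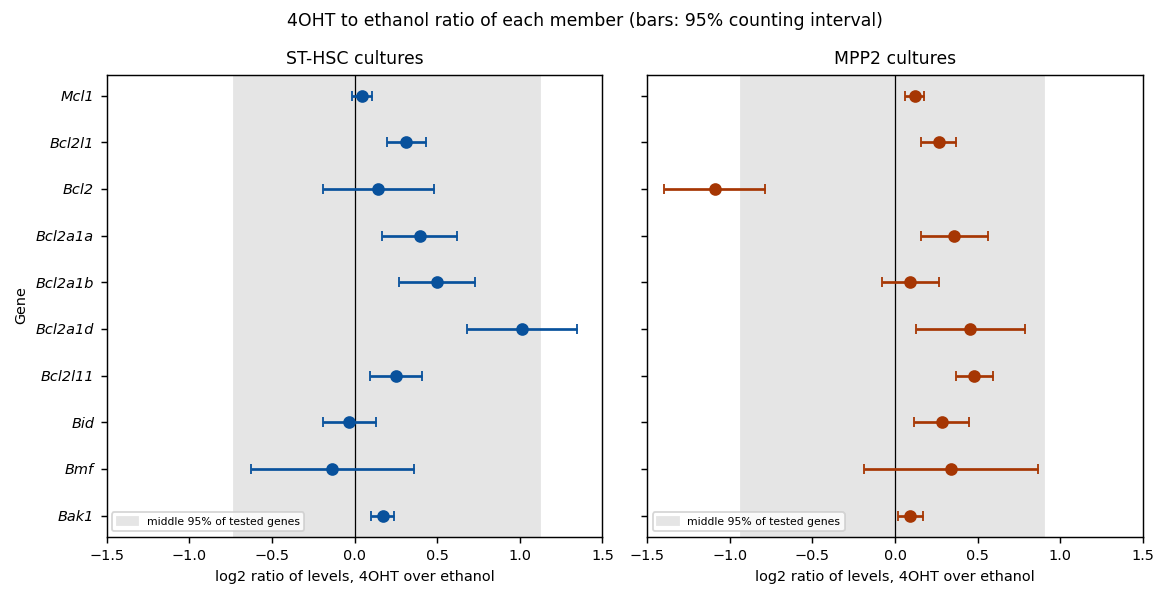
Ratio of the level with 4OHT to that with ethanol (horizontal axis, log2) for each gene (vertical axis) in ST-HSC and MPP2 colonies, with bars for the 95% counting interval and grey for the middle 95% of tested genes. Bcl2 in MPP2 colonies is the only member outside the grey range, at -1.09, and Bcl2a1d has the highest ratio in ST-HSC colonies, at 1.01.

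Read against all tested genes, the counts of members that differed with 4OHT were small. On log2 values taken after adding 0.5, 1 of 10 members was at least 1.5-fold higher with 4OHT in ST-HSC colonies (Bcl2a1d, log2 0.97), against 5.28% of tested genes, and 0 were lower, against 2.89%. The 3 Bcl2a1 rows summed had a log2 of 0.555 there, under 1.5-fold. In MPP2 colonies 1 of 10 was at least 1.5-fold lower (Bcl2, log2 -1.05), against 6.09%, and 0 were higher, against 4.67%. At 2-fold, Bcl2 in MPP2 colonies alone remained, against 1.70% of tested genes lower and 1.32% higher there, and 2.10% higher and 0.545% lower in ST-HSC colonies. With 10 genes, 1 gene past a fold is near these backgrounds. The median log2 4OHT difference of the 10 was 0.21 for ST-HSC colonies and 0.27 for MPP2 colonies, where that of all tested genes was 0.00 in each.

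The shared effect of 4OHT across the cell types was taken from limma, with terms for cell type and for treatment over the 4 libraries and Benjamini-Hochberg adjustment over all tested genes. It passed adjusted p 0.05 for 0 of the 10 members, against 0.0440% of tested genes higher and 0.00880% lower. At an unadjusted p under 0.05 it held 3 of the 10 members, Bcl2a1a, Bcl2a1d and Bcl2l11, and 1615 of the 11370 tested genes. Bcl2a1a and Bcl2a1d are near-identical copies and so not separate observations. This count of members was 1 with total-read scaling and 4 by edgeR and by limma with a trend. Bcl2a1d came closest, at a shared log2 of 0.70 (SE 0.17, limma adjusted p = 0.199) and higher in both pairs of cultures. Its adjusted p ran from 0.0395 to 0.631 over the alternative settings, since limma with a mean-variance trend (0.0395) and the edgeR quasi-likelihood test on recovered reads (0.0471) called it, as they did 2.96% and 2.93% of tested genes in that direction. DESeq2 called 0 members. With the 3 Bcl2a1 rows summed, the firmer value, the shared log2 was 0.40 (SE 0.14, limma adjusted p = 0.326). Bcl2l11 had a shared log2 of 0.36 (SE 0.14, limma adjusted p = 0.340), Bcl2l1 0.29 (SE 0.13, 0.401) and Bcl2 -0.46 (SE 0.30, 0.564). The other 6 had shared log2 values from 0.08 to 0.37 and did not pass either.

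Between cell types, Bcl2l11 and Bcl2a1b were higher in MPP2 colonies by the same fit, which has no replicate cultures. Bcl2l11 had a log2 difference of 1.11 (SE 0.14, limma adjusted p = 0.0166) and Bcl2a1b one of 0.91 (SE 0.15, limma adjusted p = 0.0298), both higher in both treatments. Higher calls of this kind covered 9.88% of tested genes and lower calls 5.31%, and 0 members were called lower. The call of Bcl2l11 held in all settings that were run, with a highest adjusted p of 0.0423. That of Bcl2a1b was lost when the 3 Bcl2a1 rows were summed (log2 0.58, SE 0.14, limma adjusted p = 0.0571) and ran from 0.000235 to 0.0623 over the other settings. The edgeR quasi-likelihood test and limma with a trend each called 4 members higher, adding Bcl2l1 and Bcl2a1a, against 16.5% and 16.7% of tested genes. Without regard to a test, 5 of the 10 genes had both MPP2 libraries above both ST-HSC libraries, against 28.8% of tested genes, namely Bcl2l1, Mcl1, Bcl2a1a, Bcl2a1b and Bcl2l11. On log2 values after adding 0.5, 3 members were at least 1.5-fold higher in MPP2 colonies in ethanol (Bcl2, Bcl2a1b and Bcl2l11), against 12.6% of tested genes, and 2 under 4OHT (Bcl2a1b and Bcl2l11), against 13.6%. Lower by that fold were 0 members, against 5.53% and 10.7%. In the same comparison 46.0% of tested genes were higher in MPP2 colonies in ethanol and 48.2% under 4OHT. There, 11 of 11 mast and basophil markers and 7 of 7 megakaryocyte markers were higher in MPP2 colonies in ethanol, and 10 and 7 under 4OHT. Of 7 tested erythroid markers 7 were higher in ethanol and 5 under 4OHT. Of 10 tested neutrophil markers 8 were higher in each treatment, with median log2 differences of 0.61 in ethanol and 1.16 under 4OHT. The part of these markers' cells in the Bcl2l11 and Bcl2a1b calls was not tested.

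**Figure D3:**
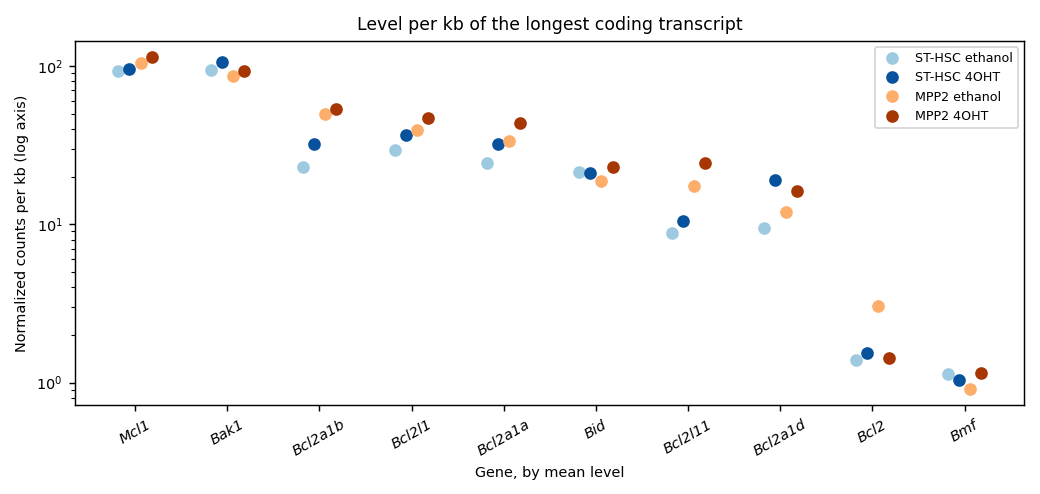
Level of each gene in normalized counts per kb of its longest coding transcript (vertical axis, log scale), ordered by the mean over the 4 libraries (horizontal axis). Mcl1 and Bak1 lie near 100 in every library and Bcl2 and Bmf near 1 to 3.

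Per kb of the longest coding transcript, the scale on which genes can be set beside each other, Mcl1 had a mean of 101 and Bak1 of 94.7, and their ranges over the libraries (92.4 to 113 and 86.9 to 105) overlap. Bcl2a1b (39.4), Bcl2l1 (38.0) and Bcl2a1a (33.4) came next, with overlapping ranges. Then came Bid (21.0), Bcl2l11 (15.3) and Bcl2a1d (14.1), whose ranges overlap too. Bcl2 (1.86) and Bmf (1.06) were far below, and their ranges (1.39 to 3.06 and 0.917 to 1.16) do not overlap. Summed per kb, the 3 Bcl2a1 rows had 56.7, 83.3, 95.3 and 113 in ST-EtOH, ST-4OHT, MPP2-EtOH and MPP2-4OHT, above Bcl2l1 in each library. Mcl1 had 92.4, 95.2, 104 and 113 per kb in the same order. With the median coding transcript length, chosen after the data were seen, the means were 162 for Mcl1, 137 for Bak1, 59.8 for Bcl2l1, 30.9 for Bcl2l11 and 2.66 for Bcl2, and Bcl2l1 moved ahead of Bcl2a1b.

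Shares of the reads of the 6 guardian rows do not depend on scaling between libraries. They are not per length, so they do not rank the genes. Mcl1 took 70.5% (Wilson 95% interval 69.4 to 71.6) in ST-EtOH and 65.2% (64.1 to 66.3) in ST-4OHT. In MPP2 colonies it took 63.9% (62.8 to 65.0) and 63.3% (62.2 to 64.4). The Bcl2a1 rows took 10.4% (9.73 to 11.2) in ST-EtOH and 13.8% (13.0 to 14.7) in ST-4OHT. They took 14.1% (13.3 to 14.9) in MPP2-EtOH and 15.2% (14.4 to 16.0) in MPP2-4OHT, and these intervals overlap. Bcl2 took 3.95% (3.53 to 4.40) in MPP2-EtOH and 1.69% to 2.24% in the other 3 libraries.

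**Figure D4:**
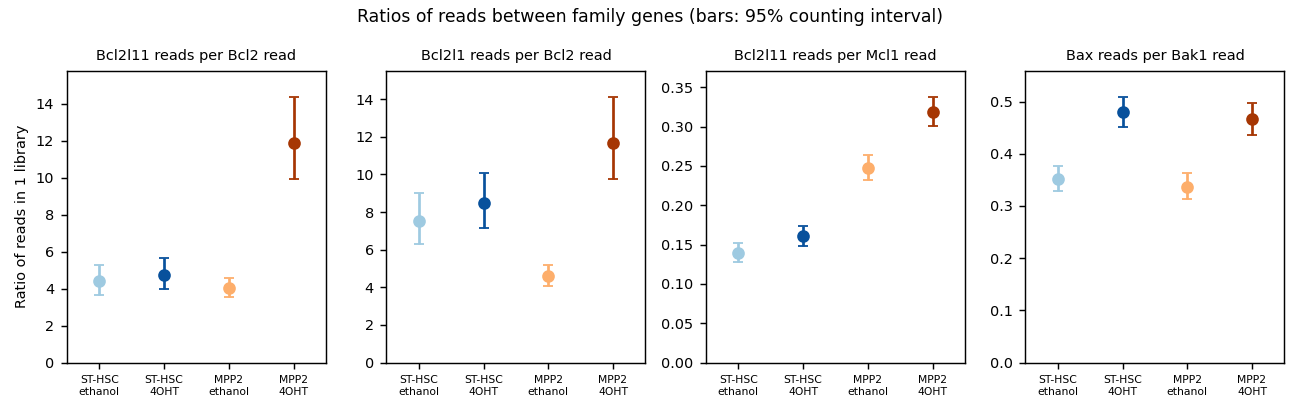
Ratio of the reads of 2 genes within 1 library (vertical axes, from 0) in the 4 libraries (horizontal axes), with bars for the 95% counting interval. Bcl2l11 reads per Bcl2 read stand at 11.9 in MPP2-4OHT and at 4.01 to 4.73 in the other 3 libraries, and Bax reads per Bak1 read are higher in both 4OHT libraries.

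Ratios within a library, for pairs chosen after their values were seen, put these together. There were 4.40 Bcl2l11 reads per Bcl2 read (3.66 to 5.31) in ST-EtOH, 4.73 (3.97 to 5.67) in ST-4OHT, 4.01 (3.54 to 4.56) in MPP2-EtOH and 11.9 (9.94 to 14.4) in MPP2-4OHT. The MPP2-4OHT library stands apart and the other 3 overlap. Against Mcl1, Bcl2l11 had 0.139 reads per read (0.128 to 0.152), 0.161 (0.149 to 0.174), 0.248 (0.233 to 0.264) and 0.318 (0.301 to 0.337) in the same order. Against all 6 guardian rows it had 0.0983 (0.0904 to 0.107), 0.105 (0.0972 to 0.113), 0.158 (0.149 to 0.168) and 0.202 (0.191 to 0.213). These ratios describe single libraries.

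Other genes of the family and its pathway were read from 7 further lists. Of all tested genes, 5.28% were at least 1.5-fold higher and 2.89% lower with 4OHT in ST-HSC colonies. In MPP2 colonies 4.67% were higher and 6.09% lower. These shares are the background of each list count below. Of 16 other BCL2 family genes 9 were tested, with 1 at least 1.5-fold higher (Bax) and 1 lower (Bnip3) with 4OHT in ST-HSC colonies, and 0 higher and 1 lower (Bnip3) in MPP2 colonies. Bax, the second killer, had 78.8 and 121 normalized counts in ST-HSC colonies (ethanol, then 4OHT) and 69.8 and 103 in MPP2 colonies. Its 4OHT ratio was 1.53 (1.42 to 1.65) for ST-HSC colonies and 1.47 (1.36 to 1.60) for MPP2 colonies, and 11.1% of its sequence words occur in another gene. The shared effect of Bax was log2 0.58 (SE 0.13, limma adjusted p = 0.165). Bax reads per Bak1 read were 0.352 (0.329 to 0.377) and 0.480 (0.452 to 0.508) in ST-HSC colonies and 0.337 (0.313 to 0.362) and 0.466 (0.436 to 0.498) in MPP2 colonies.

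Bbc3, which encodes the p53-induced BH3-only protein PUMA, had 9.04 and 12.9 normalized counts in ST-HSC colonies and 11.0 and 14.5 in MPP2 colonies, each time higher with 4OHT. Pmaip1, which encodes NOXA, a BH3-only partner of MCL1, had 66.1 and 64.5, and 71.4 and 54.5 (4OHT ratio in MPP2 colonies 0.763, 0.691 to 0.843). It falls outside the naming rule and was chosen after its values were seen. Bnip3 had 91.7 and 34.1 in ST-HSC colonies and 91.1 and 46.8 in MPP2 colonies (shared log2 -1.18, SE 0.16, limma adjusted p = 0.0921). Bnip3l had a log2 4OHT difference of -0.50 and -0.45. Both encode mitophagy receptors distantly related to BH3-only proteins, and 20.3% and 23.7% of their sequence words occur in other genes.

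**Figure D5:**
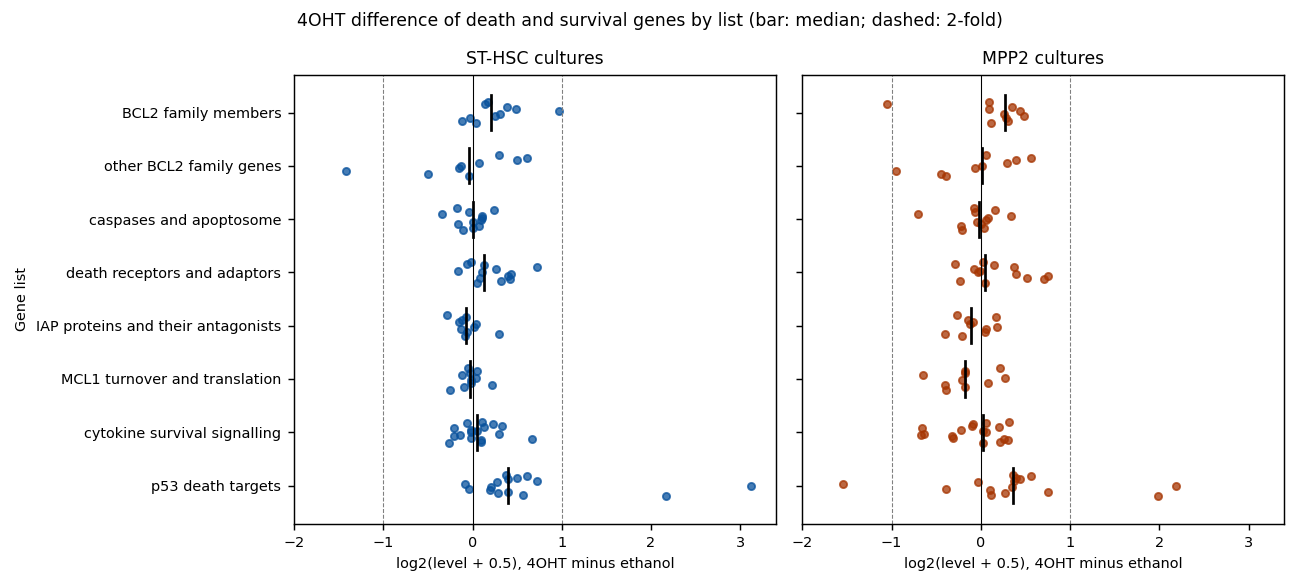
Difference in log2(level + 0.5) between 4OHT and ethanol (horizontal axis) for each tested gene of the members and of 7 pathway lists (vertical axis) in ST-HSC and MPP2 colonies, with bars for list medians and dashed lines at 2-fold. The p53 list has medians of 0.39 and 0.36 and the members 0.21 and 0.27, while the other 6 medians lie between -0.18 and 0.12.

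The p53 death target list had 4 of 15 genes at least 1.5-fold higher and 0 lower in ST-HSC colonies (Phlda3, Zmat3, Bax and Fas), and 3 higher (Phlda3, Zmat3 and Tnfrsf10b) and 1 lower (Perp) in MPP2 colonies. Of all tested genes, 5.28% were higher and 2.89% lower by that fold in ST-HSC colonies, and 4.67% and 6.09% in MPP2 colonies. Zmat3, an RNA-binding p53 target, was the only gene of the 7 lists whose shared effect passed (log2 2.08, SE 0.13, limma adjusted p = 0.0477). That call was lost in the limma settings in which no gene passed. That list holds Bax, Bbc3, Pmaip1, Fas and Tnfrsf10b, which other lists hold too. Of 13 tested death receptor genes, 1 was at least 1.5-fold higher for ST-HSC colonies and 2 for MPP2 colonies, and 0 were lower. Fas, the death receptor, had log2 differences of 0.73 and 0.37, Tnfrsf10b, the TRAIL receptor, 0.39 and 0.75, and Tnfrsf1b, a TNF receptor, 0.42 and 0.71. Tnfrsf1a, the other TNF receptor, had 0.09 and 0.52.

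Caspases and apoptosome genes had median log2 4OHT differences of 0.01 for ST-HSC colonies and -0.02 for MPP2 colonies over 12 tested genes. In the same order Casp4 had 0.11 and 0.34, Casp1 0.24 and 0.16, and Cycs, cytochrome c, 0.08 and -0.22. A further gene that the naming rule picks from this list is not reported here. Of 10 tested IAP genes, which block caspases, and their antagonists, 0 reached 1.5-fold. Naip6 had 0.30 and -0.40, Birc2 -0.29 and -0.26, Xiap -0.08 and -0.21, and Htra2 0.02 and 0.18. Of 10 tested genes of MCL1 turnover and translation, 1 did, in MPP2 colonies: Fbxw7, a ubiquitin ligase subunit that marks MCL1 for decay, at log2 -0.12 and -0.65. Usp9x, which removes ubiquitin from MCL1, had -0.25 and -0.39, and Gsk3a had 0.04 and 0.27.

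Of 17 cytokine survival genes, 1 was at least 1.5-fold higher with 4OHT in ST-HSC colonies and 3 were lower in MPP2 colonies. The first was Socs3, a feedback inhibitor of cytokine receptors, at 0.66. The 3 were Pim3 and Pim2, kinases that phosphorylate BAD, at log2 -0.67 and -0.64, and Jak2, the kinase of the IL-3 and GM-CSF receptors, at -0.66. In ST-HSC colonies Pim3, Pim2 and Jak2 had -0.15, 0.30 and -0.21. None of the 3 passed the test of the shared effect.

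Genes with the pattern most like that of the 2 members with the largest 4OHT difference were found by the root mean square distance between log2 values centred over the 4 libraries, among 8386 genes with a mean of at least 10. For Bcl2 these were Cxcl2 (distance 0.05), Gcnt1 (0.08) and Fut8 (0.10). Cxcl2, a neutrophil chemokine, had 22.0, 24.4, 48.4 and 21.2 normalized counts in ST-EtOH, ST-4OHT, MPP2-EtOH and MPP2-4OHT, high in the same single library as Bcl2. For Bcl2a1d they were Tmem109 (0.03), Trim30a (0.04) and 2010111I01Rik (0.06). Trim30a had 24.1, 50.2, 29.9 and 40.5. With only 4 libraries and so many genes these are descriptions.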

How the data were processed

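The authors deposited 1 table of normalized counts for 14323 gene symbols in 4 libraries, used here as a signal whose unit was tested. All 57292 values (100%) were whole multiples of a column step within 1e-06 reads, so whole reads were recovered. Per the labels' protocols, rRNA was depleted and strand-specific MGIEasy libraries were made from 200 ng of RNA. The submitters' processing notes list the build mm10 and the tools edgeR, RSEM, Bowtie2 and Trimmomatic 0.36. The sources used here give neither their roles nor the annotation. Coordinates, lengths and shared 31-base words come from GENCODE M21 (GRCm38, the assembly of mm10), and promoters from RefSeq.

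Tested genes had a mean of at least 1, and log2 values were taken after adding 0.5. Ratios are of levels, with exact conditional binomial intervals on reads, levels have exact Poisson intervals, and intervals of differences between responses are normal approximations on log reads. The additive limma fit had 1 residual degree of freedom, the difference between the 4OHT responses of ST-HSC and MPP2 colonies. Its p-values rest on that difference and on a prior of 3.94 degrees of freedom from all tested genes. They do not measure the spread between replicate cultures, since there were none. The labels do not say which cultures shared an animal. limma 3.58.1 ran under R 4.3.3, with DESeq2 1.42.0 and edgeR 4.0.16 on the recovered reads as alternatives, and intervals came from scipy 1.17.1. The edgeR quasi-likelihood test called 604 genes for the shared 4OHT effect. The fit was also run on simulated data in which both cell types had the same 4OHT response. Such data cannot show whether the p-values hold for these cultures.

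The members and the 13 further lists (7 pathway, 6 marker) were chosen with earlier results of these data known. Named were all members, up to 4 genes per pathway list by largest 4OHT difference, any that passed the shared test, and 3 genes nearest in pattern to each of 2 members. The neutrophil list summed to 23396 to 44549 normalized counts, the megakaryocyte list to 19.3 to 458 and the lymphoid list to 65.8 to 81.0. Rn45s took 4.82% to 7.39% of reads. A gene that the rule names in 1 list is not reported here.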

Additional observations from a re-analysis of the deposited data

Results flagged for a closer look

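Ier3, an early response gene in the list of MCL1 turnover and translation, differed in opposite directions with 4OHT in the 2 cell types by more than counting error. In MPP2 colonies it went from 91.5 normalized counts in ethanol to 69.3, a ratio of 0.758 (95% counting interval 0.694 to 0.827). In ST-HSC colonies it went from 62.8 to 73.2, a ratio of 1.17 (1.07 to 1.28). The difference was not tested, since each cell type has 1 pair of libraries.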

How the results depend on the processing

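With 1 library per group, there were no replicates to pair and no library was left out. The labels give no replicate numbers. The cell type term of the fit kept the ethanol and 4OHT libraries of each cell type together. The counts of members at least 1.5-fold apart with 4OHT held under each scaling, added constant and filter that was run. Genes at least 2-fold lower in ST-HSC colonies numbered 62, and 108 with 0.1 added before log2, 30 with 1 added and 30 at a mean of at least 5. At that mean, 2-fold higher genes went from 239 to 125 in ST-HSC and from 150 to 83 in MPP2 colonies, and lower genes there from 193 to 79, with fewer genes tested.

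The shared 4OHT effect, with 6 genes past the limma threshold (1615 unadjusted), had 0 under DESeq2 size factors (1558), 0 with 0.1 added (1514), 0 with no filter (1755), 0 with total-read scaling (1498) and 0 without Rn45s in it (1538). It had 92 with 1 added, 158 by DESeq2, 230 at a mean of at least 5, 598 by limma with a trend and 604 by edgeR. Past the threshold were 0 members, and 1 (Bcl2a1d) by edgeR and 1 by limma with a trend. The cause was not tested.

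For the MPP2 to ST-HSC difference, 2 members and 1727 genes passed. With 0.1 added these were 1 and 852, with no filter 1 and 559, by edgeR 4 and 3672, by limma with a trend 4 and 3761, and 2719 genes passed at a mean of at least 5. Bid turned from -0.03 to 0.0014 by DESeq2, both near 0. Scaling moved the median of all genes by under 0.1. Bmf and Bcl2 are limited by their reads.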
